A study of Mus musculus with 55 samples.

Results

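Expression of 28 genes of cholesterol synthesis, its regulation, intracellular transport and efflux was followed in the white fat around the gonads of C57BL/6 mice aged 6 months. The genes came from a list of symbols chosen for their roles. All 28 were found among the 43432 genes of the deposited count table and passed the filter on low counts. The animals were wild type (WT) or carried 1 copy of a knock-in allele of the Huntington's disease gene Htt, named Q20, Q80, Q92, Q111, Q140 or Q175 after the length of its CAG repeat. RNA was sequenced in 55 libraries, 4 in each of 14 groups of genotype and sex except the WT females, which had 3. WT mice shared housing with Q20 mice, whereas mice of each longer allele were kept with their own kind, so housing and the longer alleles cannot be told apart.

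Cholesterol is built from acetyl-CoA through mevalonate, farnesyl diphosphate, squalene and lanosterol. When sterols are scarce, the escort protein Scap carries the membrane-bound transcription factor Srebf2 to the Golgi for cleavage, and when sterols are plentiful the Insig proteins hold that complex back in the endoplasmic reticulum. Fat stores much of the body's free cholesterol, and the transporters Abca1 and Abcg1, both targets of the liver X receptors (LXR), pass it to lipoproteins. By role, the list held 7 genes of the mevalonate segment (Acat2, Hmgcs1, Mvk, Pmvk, Mvd, Idi1 and Fdps), 3 from squalene to lanosterol (Fdft1, Sqle and Lss) and 8 from lanosterol to cholesterol (Cyp51, Tm7sf2, Msmo1, Nsdhl, Hsd17b7, Ebp, Sc5d and Dhcr7). These 18 are called the synthesis enzymes here. The others were 4 regulators (Srebf2, Scap, Insig1 and Insig2), 4 genes of transport and storage (Stard4, Npc1, Npc2 and Soat1) and the 2 efflux transporters. No lipoprotein receptor was on the list.

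Promoter windows from RefSeq (GRCm38.p6), running from 250 bases before to 50 bases after a start site, were found for 22 of the 28 genes. Stard4, Fdft1, Npc1, Fdps, Abcg1 and Sqle had none. On either strand, the letters CCAAT stood in the windows of 19 of the 22 genes, against 41.1% of all 27025 genes in the table, and the letters GGGCGG in 21 of 22, against 38.2%. The sterol response element letters TCACNCCAC stood in 1 of 22, against 1.44%. The shorter letters TCACNCC, which overlap them, stood in 5 of 22, against 17.6%. The LXR-type direct repeat of AGGTCA with 4 bases between stood in 0 of 22, against 0.0148%. The windows printed here belong to 7 genes that recur in the comparisons. Capitals mark CCAAT, TCACNCCAC or TCACNCC as read on either strand, and a match describes the letters only.
Hmgcs1, chr13:119690101-119690400, plus strand: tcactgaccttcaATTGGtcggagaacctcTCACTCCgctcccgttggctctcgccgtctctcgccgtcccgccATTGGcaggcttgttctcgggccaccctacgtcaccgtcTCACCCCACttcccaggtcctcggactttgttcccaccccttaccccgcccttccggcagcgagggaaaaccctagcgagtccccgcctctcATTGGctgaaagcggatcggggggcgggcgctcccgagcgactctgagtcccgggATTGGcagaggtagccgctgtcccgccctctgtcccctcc
Lss, chr10:76531355-76531654, plus strand: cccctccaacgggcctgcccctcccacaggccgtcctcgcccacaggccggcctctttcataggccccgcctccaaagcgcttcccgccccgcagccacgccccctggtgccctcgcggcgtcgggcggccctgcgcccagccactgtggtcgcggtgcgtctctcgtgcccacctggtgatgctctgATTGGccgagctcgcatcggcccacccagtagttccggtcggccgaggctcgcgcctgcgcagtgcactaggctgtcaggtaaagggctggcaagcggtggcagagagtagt
Nsdhl, chrX:72918271-72918570, plus strand: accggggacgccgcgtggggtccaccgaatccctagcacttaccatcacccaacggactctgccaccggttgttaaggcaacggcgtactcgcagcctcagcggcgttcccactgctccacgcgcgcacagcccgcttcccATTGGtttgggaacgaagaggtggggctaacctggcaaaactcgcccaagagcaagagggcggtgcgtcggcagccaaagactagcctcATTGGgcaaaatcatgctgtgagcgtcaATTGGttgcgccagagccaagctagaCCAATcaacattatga
Ebp, chrX:8193463-8193762, minus strand: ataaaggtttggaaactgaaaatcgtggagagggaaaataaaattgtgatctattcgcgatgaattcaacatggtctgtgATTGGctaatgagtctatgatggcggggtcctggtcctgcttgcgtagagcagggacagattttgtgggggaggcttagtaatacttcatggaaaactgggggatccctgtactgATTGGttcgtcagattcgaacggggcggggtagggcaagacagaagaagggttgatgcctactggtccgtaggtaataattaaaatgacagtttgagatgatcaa
Dhcr7, chr7:143829964-143830263, plus strand: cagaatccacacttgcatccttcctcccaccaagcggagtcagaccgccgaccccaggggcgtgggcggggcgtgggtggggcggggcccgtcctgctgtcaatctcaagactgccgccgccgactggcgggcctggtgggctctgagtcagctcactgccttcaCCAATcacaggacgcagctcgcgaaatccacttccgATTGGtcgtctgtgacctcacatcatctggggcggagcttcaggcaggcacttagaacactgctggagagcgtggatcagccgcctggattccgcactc
Srebf2, chr15:82147019-82147318, plus strand: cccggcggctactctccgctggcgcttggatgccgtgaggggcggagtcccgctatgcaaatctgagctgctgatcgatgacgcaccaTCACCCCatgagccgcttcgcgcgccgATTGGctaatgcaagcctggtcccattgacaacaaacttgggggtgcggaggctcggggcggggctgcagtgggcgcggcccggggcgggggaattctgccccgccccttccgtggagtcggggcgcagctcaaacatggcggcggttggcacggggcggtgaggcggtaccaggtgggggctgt
Insig1, chr5:28071162-28071461, plus strand: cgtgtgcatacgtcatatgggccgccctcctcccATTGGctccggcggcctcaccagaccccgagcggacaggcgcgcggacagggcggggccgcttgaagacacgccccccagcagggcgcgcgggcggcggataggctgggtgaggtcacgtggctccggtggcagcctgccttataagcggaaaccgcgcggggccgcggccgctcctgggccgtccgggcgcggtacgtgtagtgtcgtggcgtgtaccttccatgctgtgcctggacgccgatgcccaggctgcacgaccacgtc
Hmgcs1, the synthase ahead of mevalonate, was the member with the full TCACNCCAC letters.

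Libraries held from 35094442 to 51363637 counts (median 42009365). Adipocyte markers summed to between 28558 and 64256 CPM (counts scaled for library size) in females and between 6277 and 60931 CPM in males. In 14 of the 28 male libraries, including all 4 of Q175 and none of WT, summed markers of epididymis and testis reached at least 100 CPM, with a maximum of 26188 CPM, while in females the sum did not pass 16.7 CPM. The library labelled Q140 female 1 carried 0.515 CPM of Xist and 76.6 CPM of the Y-linked Ddx3y, and the library labelled Q140 male 4 carried 0.0470 CPM of Ddx3y, so both went against their labelled sex. By the library numbers in the labels, WT and Q175 formed a higher block of 15 libraries and the other genotypes a lower block of 39, with 1 Q20 female outside both. Q175 and Q20 thus differed in block as well as in genotype, and the effects of the 2 cannot be told apart.

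Per unit of transcript length (FPKM), Npc2, which hands over cholesterol inside lysosomes, had the highest level of the list, at 219 ± 199 FPKM (SD, n = 55). The sterol-sensing brake Insig1 followed at 65.2 ± 36.9 FPKM, then the desaturase Sc5d at 56.7 ± 18.4 FPKM and the cytosolic thiolase Acat2 at 52.5 ± 24.4 FPKM. The SDs of these last 3 exceeded the gaps between them. At the low end stood Soat1, which esterifies cholesterol for storage, at 4.70 ± 2.95 FPKM, the sterol carrier Stard4 at 3.83 ± 2.45 FPKM and the reductase Hsd17b7 at 2.23 ± 0.864 FPKM. The least variable gene was Npc1, the lysosomal membrane partner of Npc2, with a coefficient of variation of 11.9% in CPM, and the most variable was Npc2, at 86.2%. Npc2, also known as an epididymal secretory protein, reached 4515 CPM in Q140 male 1 and 2696 CPM in Q80 male 1, whose epididymis and testis markers summed to 26188 and 17552 CPM.

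**Figure D1:**
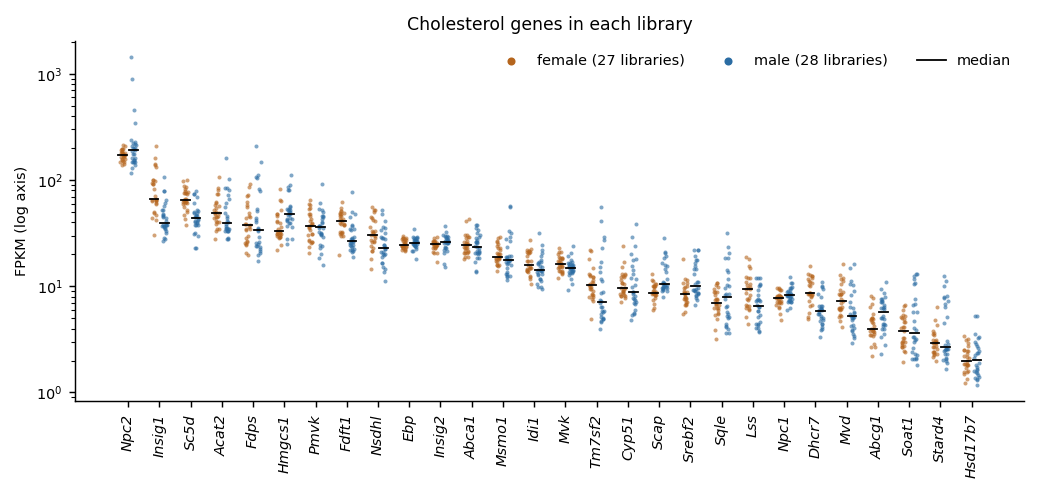
FPKM (log axis) of the 28 genes in each library, with females in brown, males in blue and a line at the median. Npc2 lies highest and reaches 1437 FPKM in 1 male library.

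Males were compared with females as the mean difference over the 7 genotypes. Most of the enzymes that differed were lower in males, as was Insig1, while Hmgcs1, Srebf2, Scap and Abcg1 were higher. Of the 28 genes, 13 passed edgeR's quasi-likelihood test at an adjusted p under 0.05 (Benjamini-Hochberg over 21113 genes), 9 lower and 4 higher. Over all genes 46.3% were called, 27.9% higher and 18.3% lower, so the called share of the list was near that of all genes. The median difference was -0.10 for the list (log2, male minus female) and 0.06 over all genes. In bulk tissue, fewer cells of a type and less RNA per cell cannot be told apart.

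Dhcr7, the reductase that yields cholesterol itself, lay between 11.1 and 42.6 CPM in females (median 21.6) and between 8.67 and 30.5 CPM in males (median 13.1). Its difference was -0.73 ± 0.11 (log2, SE; adjusted p = 6.48e-07). Without the 2 Q140 libraries that went against their labels, Dhcr7 began at 12.3 CPM in females and ended at 26.5 CPM in males. The ranges of the sexes overlapped, here and for each gene described next.
Insig1 lay between 72.4 and 744 CPM in females (median 206) and between 64.9 and 304 CPM in males (median 105). It differed by -1.01 ± 0.16 (adjusted p = 1.98e-06), and its difference was below 0 in the 6 genotypes other than Q140, from -1.94 to -0.30. The lowest female value was that of the library labelled Q140 female 1, and without it the females began at 111 CPM.
Fdft1, which makes squalene, lay between 49.2 and 192 CPM in females (median 123) and between 45.3 and 187 CPM in males (median 78.1). Without the library labelled Q140 female 1 the females began at 82.5 CPM. Fdft1 differed by -0.59 ± 0.10 (adjusted p = 5.8e-06). Of its 75-base stretches, 16.6% also occur on the opposite strand within Ctsb, so its counts are uncertain where strand was not used.
Sc5d lay between 74.0 and 235 CPM in females (median 145) and between 40.8 and 178 CPM in males (median 88.8). Without the 2 Q140 libraries its females began at 88.1 CPM and its males ended at 166 CPM. Sc5d differed by -0.68 ± 0.12 (adjusted p = 2.06e-05) and, like Insig1, had a difference below 0 in the 6 genotypes other than Q140.
Lss, which closes the ring to lanosterol, lay between 24.4 and 124 CPM in females (median 49.9) and between 19.3 and 69.4 CPM in males (median 31.5), a difference of -0.65 ± 0.12 (adjusted p = 3.02e-05). Nsdhl, which helps to strip methyl groups from the sterol, lay between 30.3 and 148 CPM in females (median 72.4) and between 23.9 and 108 CPM in males (median 47.9), a difference of -0.53 ± 0.12 (adjusted p = 0.00025).

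Among the regulators, Scap lay between 31.1 and 48.8 CPM in females (median 40.3) and between 37.2 and 117 CPM in males (median 45.3). It was higher in males by 0.36 ± 0.08 (adjusted p = 0.000633). Without the 2 Q140 libraries its females ended at 47.7 CPM and its males began at 37.7 CPM. Srebf2 lay between 33.8 and 78.6 CPM in females (median 42.1) and between 35.05 and 106 CPM in males (median 48.4), and was higher in males by 0.35 ± 0.09 (adjusted p = 0.00222). Without the library labelled Q140 female 1 its females ended at 56.3 CPM. Both Scap and Srebf2 had differences above 0 in the 6 genotypes other than Q140, from 0.006 to 0.68 for Scap and from 0.095 to 0.71 for Srebf2. The lowest were those of WT, followed by 0.11 for both genes in Q111. Across 27 males both genes correlated with the epididymis and testis markers at r = 0.75, and the part of those markers in the 2 differences was not tested. The other called genes were Mvd (-0.51), Mvk (-0.25), Idi1 (-0.30), Hmgcs1 (0.38) and Abcg1 (0.28). Without Q92 male 2, Abcg1 lost its call at 0.20 (adjusted p = 0.0503). Of the 18 synthesis enzymes 8 were lower and 1 was higher, and none of the 4 transport and storage genes was called.

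Several members moved with the epididymis and testis markers. Across 27 male libraries (without Q140 male 4), the log2 levels of 16 of the 28 genes correlated positively and 9 negatively with the log2 marker sum at an adjusted p under 0.05 (permutation tests with 100000 draws, 28 relations). Libraries were shuffled across genotypes and levels were not centred by group, so differences between genotypes and blocks enter these p values. Over all genes, 35.4% had an r at least as high as the weakest of the 16 (0.39) and 22.5% an r at least as low as the weakest of the 9 (-0.43). Stard4 had r = 0.87 and rho = 0.79 (adjusted permutation p = 3.5e-05 and 0.000112), and r was 0.85 without the 2 libraries farthest from the median. The squalene epoxidase Sqle had r = 0.87 and rho = 0.85 (adjusted permutation p = 3.5e-05 and 0.000112), and r = 0.84 without them. Insig2, a second sterol-sensing brake, had r = -0.74 and rho = -0.72 (adjusted permutation p = 3.5e-05 and 0.000187), and r = -0.73 without them. No correlation passed for Dhcr7 (r = 0.21, adjusted permutation p = 0.296) or Insig1 (r = 0.03, adjusted permutation p = 0.899). Within the 19 males of the lower block, r was 0.89 for Stard4, 0.90 for Sqle and -0.75 for Insig2. Within the 14 males of at least 100 CPM it was 0.92, 0.81 and -0.81, and within the 13 below, 0.36, 0.45 and -0.43.
The median of Stard4 was 29.9 CPM in the 14 males above that level, 12.1 CPM in the 13 below and 14.8 CPM in 26 females. For Sqle the medians were 31.4, 14.5 and 19.7 CPM, and for Lss 33.5, 24.5 and 51.1 CPM. Males with many marker reads were thus the highest set for Stard4 and Sqle, and females for Lss.

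**Figure D2:**
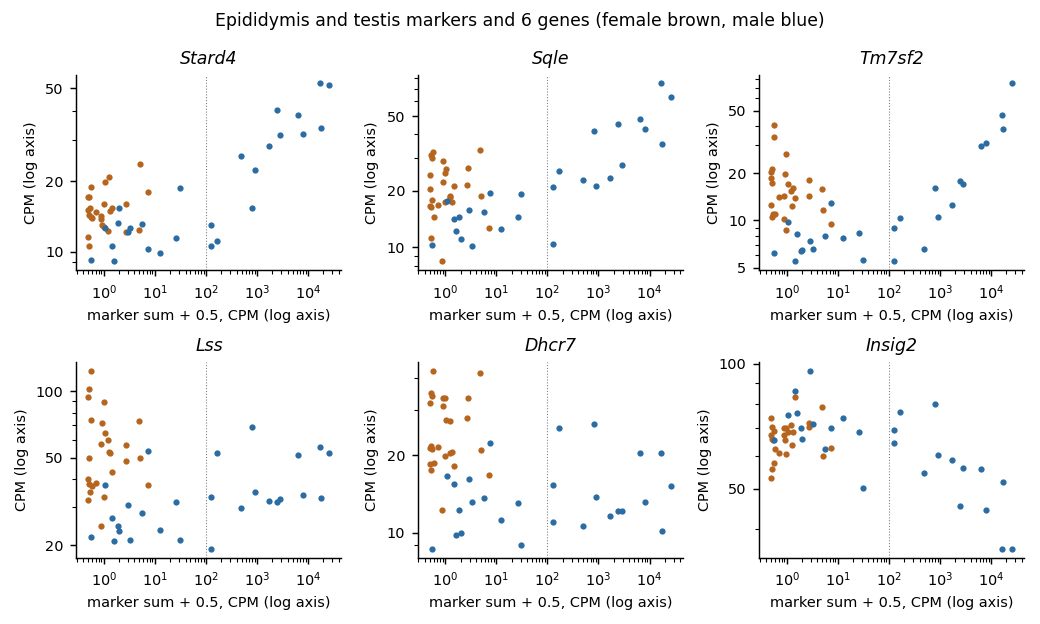
CPM of 6 genes (log axis) against the summed CPM of epididymis and testis markers plus 0.5 (log axis) in 26 female (brown) and 27 male (blue) libraries, with a dotted line at 100 CPM. Stard4, Sqle and Tm7sf2 are higher and Insig2 is lower in males with more of the markers (r = 0.87, 0.87, 0.82 and -0.74).

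Leaving out those 14 male libraries and both Q140 libraries that went against their labels left 39, with no Q140 or Q175 male among them. Of the males, Q80 kept only male 4 and Q92 only male 3, so the sexes were unevenly spread over the genotypes. In an additive fit of genotype and sex on these, 20 of the 28 genes were called, 17 lower in males and 3 higher, where 15.8% of all genes were lower and 18.9% higher. Of the 18 synthesis enzymes 15 were lower, and 1, Hmgcs1, was higher. Their median was -0.59, beside 0.01 over all genes. The sterol reductase Tm7sf2, at -0.17 ± 0.20 in all libraries, was -1.16 ± 0.16 here (adjusted p = 8.84e-07). Fdps, which makes farnesyl diphosphate, was 0.03 ± 0.18 and then -0.87 ± 0.20 (adjusted p = 0.00105), and Sqle was 0.21 ± 0.16 and then -0.55 ± 0.15 (adjusted p = 0.00403). Dhcr7 (-0.99 ± 0.14), Lss (-1.07 ± 0.18), Mvd (-0.91 ± 0.18) and Insig1 (-1.06 ± 0.23) were lower in both fits. Hmgcs1 (0.62 ± 0.12), Abcg1 (0.57 ± 0.10) and Scap (0.16 ± 0.05) were higher in both. Srebf2 was no longer called (0.12 ± 0.05, adjusted p = 0.0619).

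**Figure D3:**
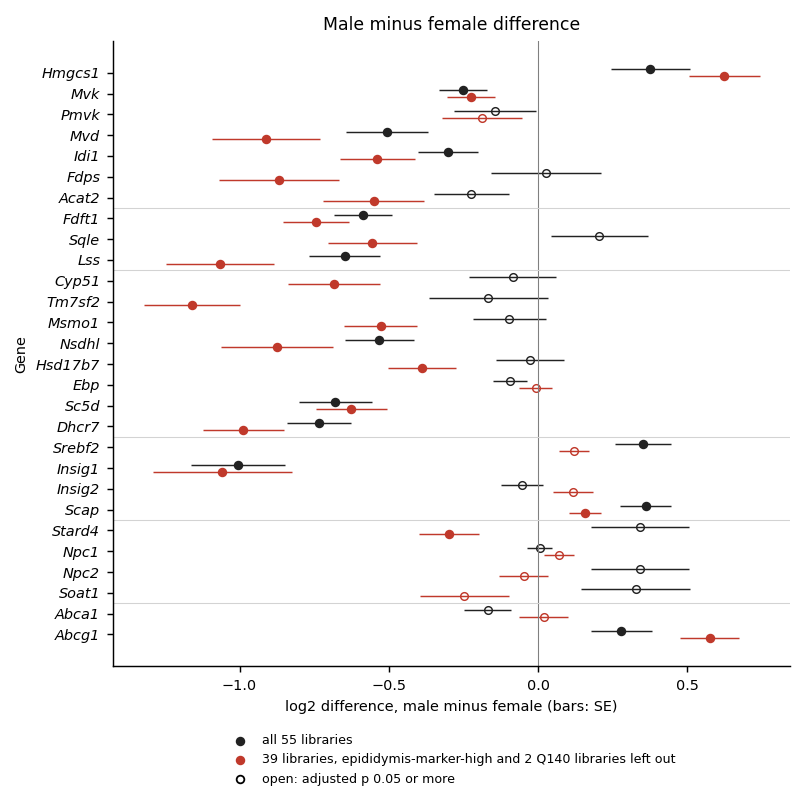
Male minus female difference of each gene (log2; bars are SE), by role, in all 55 libraries (black) and in the 39 left (red). Filled points have an adjusted p under 0.05, which 13 genes reach in black and 20 in red.

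Without the 2 Q140 libraries alone, 15 genes were called, 10 lower and 5 higher (19.5% and 29.8% of all genes), with Abca1 (-0.19 ± 0.08) and Stard4 (0.41 ± 0.16) added. Within the higher block 9 were called, 8 lower and 1 higher (14.2% and 16.2% of all genes). Within the lower block 8 were called, 6 lower and 2 higher (12.3% and 22.4%). Fdft1, Lss, Nsdhl, Sc5d, Dhcr7 and Insig1 were lower in both blocks, with differences of -0.87 and -0.45 for Fdft1, -0.94 and -0.48 for Lss and -0.88 and -0.65 for Dhcr7 (higher block first). Hmgcs1, Abcg1, Idi1 and Mvk were called in neither block, Scap not in the higher block and Mvd not in the lower. Hmgcs1 and Abcg1 also lost their calls with the length trend removed.
Taken genotype by genotype, Dhcr7 was lower in males in WT (-1.11), Q20 (-1.36), Q80 (-0.96) and Q92 (-0.80). Lss and Nsdhl were lower in WT (-1.43 and -1.30) and Q20 (-1.58 and -1.38). Over all genes, 0.592% were lower in WT, 1.57% in Q20, 1.19% in Q80 and 9.71% in Q92. Insig1 (-1.94) and Idi1 (-0.89) were also lower in Q20. In Q92 Insig1 (-1.68), Sc5d (-1.05), Abca1 (-0.58), Mvk (-0.52) and Ebp (-0.41) were lower and Srebf2 (0.71) was higher. This made 3 called members in WT, 5 in Q20, 1 in Q80 and 7 in Q92, where 1.26%, 3.41%, 5.85% and 34.3% of all genes were called. No member was called in Q111, Q140 or Q175, where 3.44%, 0% and 1.16% of all genes were called. In Q140 each sex held a library that went against its label, so the count there says nothing about the members. The sex difference was compared between Q175 and WT, where edgeR's test called 0 of the 28 genes (0.0284% of all genes). An unadjusted p under 0.05 was reached there by 3 members and by 499 of all 21113 genes. The smallest p values there were those of Nsdhl (-1.06 ± 0.44) and Fdps (-1.66 ± 0.71). These values are the Q175 minus WT difference in females minus the same difference in males. The male minus female difference itself was -1.30 in WT and -0.25 in Q175 for Nsdhl, and -1.24 and 0.42 for Fdps.

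Ebp, a sterol isomerase, separated Q175 from both WT and Q20. It lay at 35.4, 36.2, 36.4 and 36.9 CPM in Q175 females and at 31.0, 31.5, 33.4 and 37.8 CPM in Q175 males. In WT it lay at 42.9, 47.3 and 47.7 CPM in females and at 41.2, 43.8, 46.4 and 47.9 CPM in males. In Q20 it lay at 43.8, 46.0, 55.2 and 63.1 CPM in females and at 43.7, 44.6, 46.9 and 50.9 CPM in males. In CPM all 8 Q175 libraries lay below all 7 WT and all 8 Q20 libraries. In FPKM they overlapped, with 25.5 FPKM in Q175 male 1 and 23.8 FPKM in WT female 3. Against WT the difference was -0.38 ± 0.11 (log2; adjusted p = 0.0181), and Ebp was the 1 gene of 28 called, where 10.4% of all genes were called (3.34% higher and 7.1% lower), so the count is no higher than the background. Against Q20 it was -0.50 ± 0.11 (adjusted p = 0.000871).
The call against WT was lost without Q175 male 3 at -0.35 (adjusted p = 0.0592), Q175 male 4 at -0.35 (adjusted p = 0.0598), WT female 2 at -0.34 (adjusted p = 0.0666) or WT female 3 at -0.37 (adjusted p = 0.0547). It was also lost in 6 of 15 other settings, over which the difference ran from -0.41 to -0.17 (adjusted p from 5.09e-06 to 0.169). In Q175 against WT, 5 of 6 stromal progenitor markers, 4 of 10 macrophage markers and 3 of 9 epididymis and testis markers were called higher, and across males Ebp correlated with the last of these at r = -0.61. Adipocyte markers summed to 26496 to 36557 CPM in Q175 males and 45525 to 49975 CPM in WT males, without overlap, and to 40866 to 42712 CPM in Q175 females and 42199 to 57506 CPM in WT females. The part of any of these cells in the Ebp difference was not tested.

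Against Q20, 4 of the 28 genes were called in Q175, all lower, where 14.2% of all genes were called, 4.54% higher and 9.7% lower. Besides Ebp they were Acat2 (-0.74 ± 0.23, adjusted p = 0.0265), Fdps (-1.06 ± 0.34, adjusted p = 0.0303) and Nsdhl (-0.64 ± 0.21, adjusted p = 0.0372).
Fdps lay at 49.8, 83.9, 114 and 150.2 CPM in Q20 females and at 23.7, 30.3, 31.3 and 35.1 CPM in Q175 females, without overlap. In males it lay at 24.7, 27.03, 31.7 and 129.5 CPM in Q20 and at 26.5, 38.2, 41.1 and 55.7 CPM in Q175, and the ranges overlapped. Without Q20 male 1, whose epididymis and testis markers summed to 6402 CPM, the difference was -0.59 (adjusted p = 0.195) for Fdps, -0.61 (adjusted p = 0.0704) for Acat2 and -0.46 (adjusted p = 0.127) for Nsdhl. The count of called members was 1 without Q175 female 3 or Q175 male 3, where 2601 and 2246 of all genes were called. It was 2 without Q175 male 1, 2 or 4 or Q20 female 2 or 4, where 2390 to 2832 of all genes were called. With every library 3006 of all genes were called. Without Q20 female 2, 1 of the 2 members was higher. Acat2 shares 33.9% of its 75-base stretches with Acat3 and Fdps 23.5% with gene models such as Gm43738, so their counts are uncertain.

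No member was called by edgeR's test in Q140, Q111, Q92 or Q80 against Q20, or in Q20 against WT. At an unadjusted p under 0.05 there were 2 members in Q140, 11 in Q111 (10 of them lower), 2 in Q92, 2 in Q80 and 0 in Q20 against WT. Of all 21113 genes, 2177, 1466, 3795, 1681 and 2150 had such a p, in the same order. Over all genes 0 were called in Q140, Q111 and Q80, 6.11% in Q92 (5.91% higher) and 0.753% in Q20 against WT (0.403% lower). The smallest p values in Q111 belonged to Lss (-0.72 ± 0.22) and Fdps (-1.06 ± 0.34), and in Q140 to Npc2 (0.65 ± 0.30) and Hsd17b7 (0.43 ± 0.21). In Q92 they belonged to Fdft1 (0.41 ± 0.18) and the kinase Pmvk (-0.52 ± 0.25), and in Q80 to Hsd17b7 (0.51 ± 0.21) and Hmgcs1 (0.54 ± 0.24). In Q20 against WT they belonged to Fdps (0.67 ± 0.36) and Tm7sf2 (0.63 ± 0.39). Limma's voom with quality weights called 2 members in Q111 and 11 in Q92, where it called 405 and 7181 of all genes.
Within single sexes, edgeR's test of Q175 against WT called 0 members in females (0.199% of all genes, 0.0805% lower; 6 at an unadjusted p under 0.05, all lower), led by Pmvk (-1.004 ± 0.38) and Nsdhl (-0.82 ± 0.32). It called 0 in males (1.76%, 1.48% lower; 2 unadjusted), led by Ebp (-0.42 ± 0.15) and Stard4 (1.03 ± 0.43). An unadjusted p under 0.05 in edgeR's test was reached by 2716 of all genes in females and 4036 in males. Voom called 11 and 7 members, where it called 4150 and 7247 of all genes.

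Over the 6 knock-in lines, the slope on CAG length over both sexes called 1 member, Ebp, at -0.25 ± 0.06 per 100 repeats (log2; adjusted p = 0.0088), where 8.32% of all genes were called, 2.65% higher and 5.66% lower. Q175 was the only knock-in line in the higher block of library numbers. In any slope that includes Q175, CAG length and block thus cannot be told apart at the long end. Slopes within each sex were added after the data were seen, so their calls describe these libraries. In females, 8 of the 28 genes were called, 7 lower and 1 higher with longer repeats, where 2.39% of all genes were called, 1.77% lower and 0.62% higher. All 7 lower genes were among the 18 synthesis enzymes, whose median slope was -0.56, beside 0.02 over all genes.

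Lss lay in females at 60.2, 71.5, 89.3 and 124 CPM in Q20, at 48.1, 57.2, 58.0 and 73.0 CPM in Q80 and at 38.5, 39.9, 64.6 and 74.4 CPM in Q92. It lay at 24.4, 32.2, 34.8 and 52.4 CPM in Q111, at 25.3, 33.0, 42.8 and 49.6 CPM in Q140 and at 37.3, 37.4, 49.9 and 53.1 CPM in Q175. All Q20 females lay above all females of Q111 and Q175, and the 3 WT females lay at 37.9, 94.0 and 103 CPM. The Q140 values include 25.3 CPM from the library labelled Q140 female 1, which went against its label, while the library labelled Q140 male 4 had 69.4 CPM, above the lowest Q20 female. The slope of Lss was -0.73 ± 0.19 (adjusted p = 0.0302).
Nsdhl lay at 77.1, 106, 129 and 148 CPM in Q20 females and at 36.1, 49.7, 54.8 and 59.2 CPM in Q175 females, with a slope of -0.79 ± 0.18 (adjusted p = 0.0163). Dhcr7 lay at 27.1, 31.0, 33.2 and 42.6 CPM in Q20 females and at 16.7, 18.6, 20.4 and 20.9 CPM in Q175 females, with a slope of -0.67 ± 0.17 (adjusted p = 0.0267). For both genes, as for Fdps (-1.10 ± 0.29, adjusted p = 0.0338), all 4 Q20 females lay above all 4 Q175 females. Q111 females overlapped with Q175, from 30.3 to 73.8 CPM for Nsdhl, 12.3 to 21.4 for Dhcr7 and 23.5 to 47.0 for Fdps. In Q80 females Dhcr7 ran from 27.9 to 41.8 CPM and overlapped with Q20. The lowest WT female, at 48.3, 17.6 and 34.0 CPM for the same genes, lay within the Q175 range, and the other WT females lay above it.
Acat2 lay at 114, 151, 200.3 and 309.7 CPM in Q20 females and at 71.7, 88.8, 98.6 and 112 CPM in Q175 females, with a slope of -0.74 ± 0.20 (adjusted p = 0.0339). Idi1, an isomerase of the mevalonate segment, lay at 47.8, 61.8, 71.1 and 107 CPM in Q20 females and at 33.4, 36.0, 46.8 and 49.7 CPM in Q175 females, with a slope of -0.56 ± 0.16 (adjusted p = 0.0455). It shares 16.7% of its 75-base stretches with gene models such as Gm13502. The Q20 and Q175 females did not overlap for Acat2 and overlapped for Idi1. The slope of Ebp was -0.33 ± 0.09 (adjusted p = 0.0364).
The efflux transporter Abcg1 was the gene with a higher slope, at 0.56 ± 0.16 (adjusted p = 0.048). It lay at 10.3, 10.4, 13.3 and 14.5 CPM in Q20 females and at 16.6, 22.1, 24.4 and 27.3 CPM in Q175 females, and all 4 Q175 females lay above all 4 Q20 females. It ran from 16.3 to 17.8 CPM in Q111 females and from 13.1 to 20.7 CPM in WT females, and both overlapped with Q175.

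**Figure D4:**
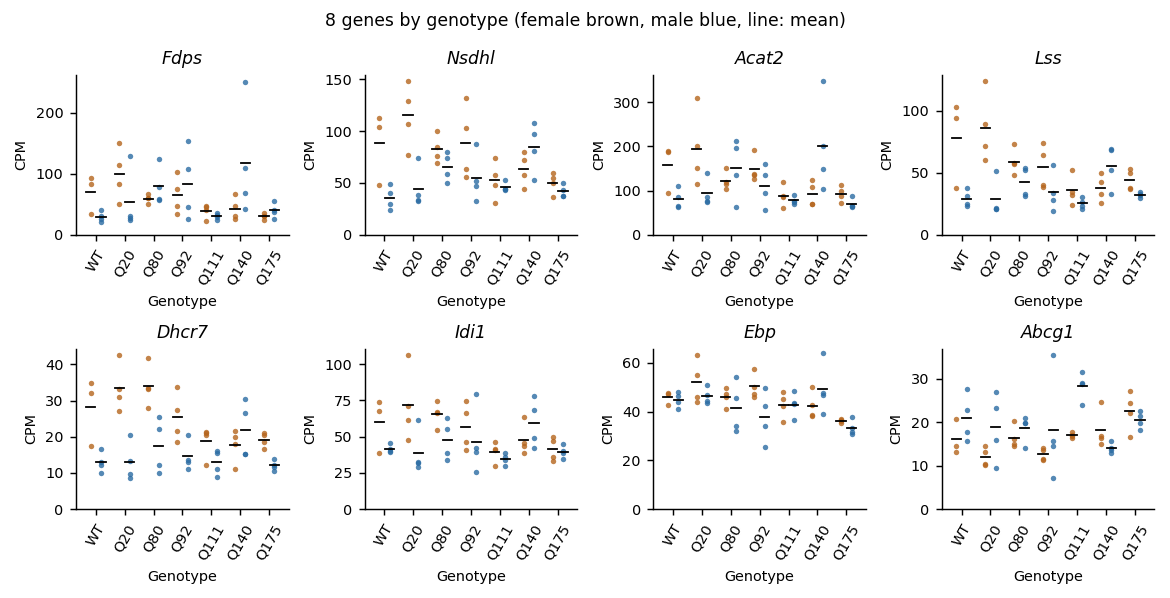
CPM of the 8 genes called in the female slope, by genotype, with each library as a point (females brown, males blue) and group means as lines. In females the mean of Lss is 86.3 CPM in Q20 and 44.4 CPM in Q175, and that of Abcg1 is 12.1 and 22.6 CPM.

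In males edgeR's test called 0 of the 28 slopes (0.355% of all genes, 0.0663% higher), led by Ebp (-0.18 ± 0.09) and Abca1 (0.21 ± 0.12). There was 1 member at an unadjusted p under 0.05, beside 2803 of all genes, and voom called 9 members, beside 5823 of all genes. The difference between the slopes (female minus male) called 0 members and 0 of all genes. It had 12 members at an unadjusted p under 0.05 (1000 of all genes) and 9 called by voom (906 of all genes). Its smallest p values were those of Lss (-0.94 ± 0.26, adjusted p = 0.465) and Nsdhl (-0.89 ± 0.25, adjusted p = 0.481), so the slopes were not shown to differ by sex.
The female calls depended on single libraries. The count was 0 without Q20 female 2 or Q175 female 3, and 1 without Q20 female 1 or 4, Q175 female 1, 2 or 4 or Q140 female 1. Of all genes, 505 were called with every library, 1 without Q20 female 2 and 85 without Q175 female 3. Where 1 member was called, 100 to 266 of all genes were. The member count was 3 without Q140 female 3 (241 of all genes). It was 5 without Q111 female 1 (333) or Q140 female 2 (327). The loss of calls was thus not particular to the members. Without the 2 Q140 libraries that went against their labels, Nsdhl alone was called (0.484% of all genes were lower), and the enzymes' median was -0.51. Fitted on female libraries alone without Q140 female 1, 13 members were called, 11 lower and 2 higher (5.8% and 4.31% of all genes), with an enzyme median of -0.52.
From Q20 to Q140, within the lower block apart from Q20 female 2, edgeR's test called no member in females (0.0189% of all genes). It had 14 members at an unadjusted p under 0.05, 13 of them lower, beside 2346 of all genes. DESeq2 called 4 members, beside 431 of all genes, and voom 5, beside 158. The smallest p values in edgeR's test were those of Lss (-1.10 ± 0.24, adjusted p = 0.111) and Dhcr7 (-0.85 ± 0.22, adjusted p = 0.172). Over both sexes edgeR's test called 0 members (0.00474% of all genes), led by Lss (-0.29 ± 0.17) and Npc2 (0.37 ± 0.24). There were 0 members at an unadjusted p under 0.05, beside 1606 of all genes.
In the female slope 0 of 10 adipocyte, 0 of 10 macrophage and 0 of 6 stromal progenitor markers were called, and 2 of 6 exocrine pancreas markers were higher. The macrophage, stromal progenitor and adipocyte sums still differed between Q20 and Q175 females without overlap. Exocrine pancreas sums overlapped, at 9.29 to 17.2 CPM in Q20 and 6.97 to 156 CPM in Q175. Macrophage markers summed to 714 to 819 CPM in Q20 and 1057 to 1094 CPM in Q175, and stromal progenitor markers to 1770 to 2098 and 2548 to 2727 CPM. Adipocyte markers summed to 46312 to 53484 CPM in Q20 and 40866 to 42712 CPM in Q175. The part of these cells and of pancreatic RNA in the slopes was not tested.

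**Figure D5:**
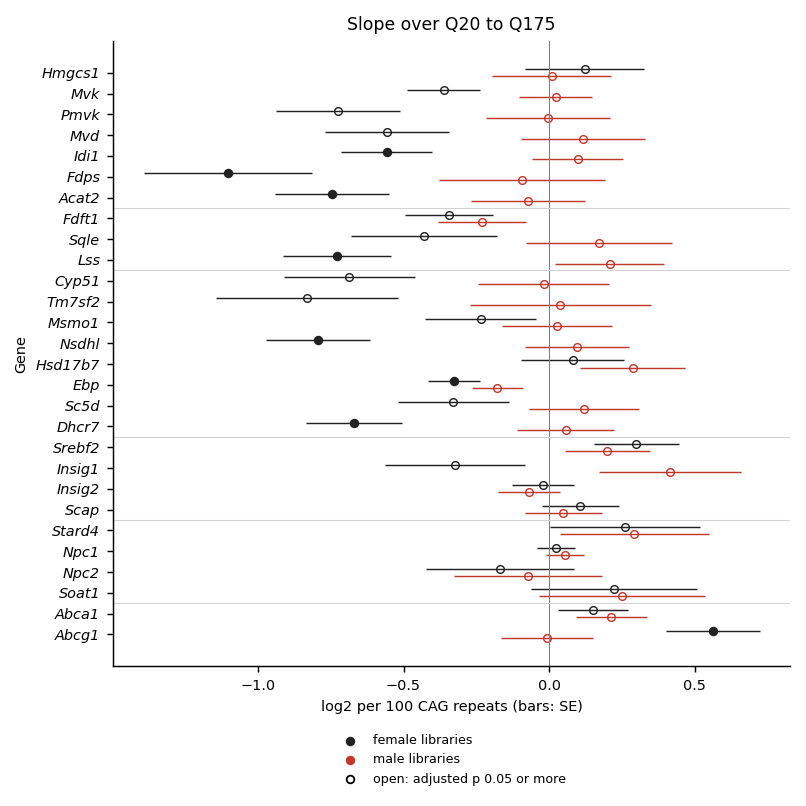
Slope of each gene over Q20 to Q175 (log2 per 100 CAG repeats; bars are SE), by role, in females (black) and males (red). Filled points have an adjusted p under 0.05, which 8 genes reach in females and 0 in males.

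The slope over both sexes was also taken from the additive fit on the 39 libraries. These leave out the males high in epididymis and testis markers and the 2 Q140 libraries. They hold no Q140 or Q175 male, so at the long end the slope rested on females only. The fit called 11 members, 9 lower and 2 higher (5.94% and 4.59% of all genes). All 9 lower members were synthesis enzymes, and the median of the 18 was -0.39, beside 0.02 over all genes. The additions were Acat2, Cyp51, Dhcr7, Fdps, Mvk, Nsdhl, Pmvk and Tm7sf2, and Srebf2 and Abcg1.

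Members that varied with Hmgcs1 within groups were sought over 27 pairs in 55 libraries, and 2 passed, where 0.426% of all genes had an r at least as high as the weaker of them. Ebp had r = 0.60 and rho = 0.58 (adjusted permutation p = 0.00378 and 0.00216), and the mevalonate kinase Mvk r = 0.58 and rho = 0.51 (adjusted permutation p = 0.0085 and 0.0128). Without the 2 libraries farthest in Hmgcs1, r was 0.52 and 0.48. Within the higher block it was 0.35 and 0.46, and within the lower block 0.67 and 0.62. In 27 males it was 0.75 and 0.81, and in 26 females 0.17 and 0.05. Across the same males Hmgcs1, Ebp and Mvk each correlated with the epididymis and testis markers, at r = -0.44, -0.61 and -0.56. The part of those markers in the relations with Hmgcs1 was not tested.

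A further list of 33 cholesterol genes was counted beside the members. Between the sexes 19 of the 33 were called, 11 higher and 8 lower in males, beside 46.3% of all genes. Among them were Gramd1b, a carrier of plasma membrane cholesterol (1.72 ± 0.17), and the lipoprotein component Apoe (0.84 ± 0.12). In Q175 against Q20 5 were called, 4 higher and 1 lower, which is near the 14.2% of all genes. They included the endocytic receptor Lrp1 (0.79 ± 0.17), the Srebf2 protease Mbtps1 (0.19 ± 0.06) and Lbr (0.22 ± 0.07). In Q175 against WT the called genes were Pltp (0.77 ± 0.20), Mbtps1 (0.21 ± 0.06) and Gramd1a (-0.35 ± 0.11). In Q92 against Q20 they were Tmem97 (1.07 ± 0.23) and Rnf139 (0.59 ± 0.17). In the slope over both sexes they were Lrp1, Lbr and Mbtps1, and in the female slope Mbtps1 (0.17 ± 0.05) and Lrp1 (0.52 ± 0.15), all higher.
Of 10 LXR target genes, 6 were called between the sexes, 3 higher and 3 lower in males, beside 46.3% of all genes, with the smallest p values for Apoe, Scd1 (-0.73 ± 0.18), Srebf1 (-0.39 ± 0.10) and Pltp (0.38 ± 0.10). In the female slope Abcg1 was higher and Lpcat3, which remodels phospholipids, was lower (-0.41 ± 0.10). In Q175 against Q20 Lpcat3 was lower (-0.48 ± 0.12) and the ubiquitin ligase Mylip was higher (0.39 ± 0.10).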

How the data were processed

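The authors deposited estimated counts per gene (expected counts, not scaled) and FPKM values, which per the file headers cover 55 libraries. CASAVA 1.8.2 was used, per the submitters' processing notes, and the sources used here do not give the aligner, counting program, strand setting or genome build. Of the nonzero counts 33.7% were not whole, and all were rounded before testing. Identifiers were matched to GENCODE M21 (42548 of 43432). edgeR 4.0.16 in R 4.3.3 (TMM scaling, filterByExpr, robust quasi-likelihood test, 14 groups, no covariates) tested 21113 genes with Benjamini-Hochberg adjustment, after the script had been tested on simulated data. Genotype differences are means over both sexes, and CPM values are TMM-scaled. limma 3.58.1 and DESeq2 1.42.0 gave alternatives. Depth limits counting error only, since reads carried no molecular identifiers. The labels do not say that libraries of a group came from separate animals, so p values measure the spread between libraries.

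The members, lists and comparisons were chosen with earlier results of these data known. Members called in a comparison are given with values, beyond 8 called the 8 with the smallest p in full, and where none was called the 2 with the smallest p. Of the further lists up to 4 genes per comparison are named, by the smallest p, and some of these are not reported here. Library blocks within the sex comparison, the slopes within each sex and the shares of all genes at a given correlation were added after seeing the data.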

Additional observations from a re-analysis of the deposited data

Results flagged for a closer look

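In groups of 4 libraries, 30 of 364 tests over the 28 genes had 1 library far from the other 3 (Dixon's test). Chance gives about 1 in 20 groups.

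Q20 male 1, with 6402 CPM of epididymis and testis markers, stood high for 12 genes: Idi1 (61.5 CPM), Fdps (129.5 CPM), Sqle (48.2 CPM), Lss (51.5 CPM), Cyp51 (73.8 CPM), Tm7sf2 (29.7 CPM), Nsdhl (73.7 CPM), Hsd17b7 (12.8 CPM), Acat2 (140.2 CPM), Srebf2 (68.4 CPM), Scap (63.4 CPM) and Stard4 (38.2 CPM). Q140 male 1, with 26188 CPM of these markers, stood high for 5: Srebf2 (106 CPM), Scap (117 CPM), Stard4 (51.7 CPM), Npc2 (4515 CPM) and Soat1 (77.6 CPM). Q80 male 1, with 17552 CPM of markers, stood high for Npc2 (2696 CPM), and Q92 male 1, with 16781 CPM, for Mvd (22.2 CPM).

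The other high libraries were Q140 male 3 for Hmgcs1 (384 CPM), Q111 female 2 for Fdft1 (140.2 CPM), Q140 female 4 for Msmo1 (51.8 CPM), Q111 male 3 for Nsdhl (53.1 CPM), Q175 male 1 for Acat2 (87.9 CPM), Q20 female 2 for Insig1 (744 CPM), Q140 female 1 for Stard4 (27.7 CPM), Q92 female 3 for Npc1 (46.8 CPM) and Q111 male 1 for Soat1 (52.1 CPM). Low libraries were Q140 female 2 for Hsd17b7 (7.43 CPM) and Q111 female 4 for Dhcr7 (12.3 CPM).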

How the results depend on the processing

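Counts are members called of 28. For Q175 against WT (1) the count was 0 with no low-count filter, with lane as a factor, on log2(FPKM + 0.1), on log2(FPKM + 1), with the length trend removed and at a threshold of 0.01, 3 in the additive fit without the libraries high in epididymis markers and the 2 Q140 libraries, 9 in a fit of those genotypes only and 10 by voom. For Q175 against Q20 (4) it was 1 with lane or at 0.01, 2 with no filter or the length trend removed, 7 without the 2 Q140 libraries, 8 by DESeq2, 10 in the additive fit, 13 in a fit of those genotypes only and 16 by voom. For the slope over both sexes (1) it was 0 with the length trend removed, 2 on both FPKM scales (both higher), 3 by DESeq2, 11 in the additive fit and 14 by voom. For males against females (13) it was 20 in the additive fit and 8 in the lower block. Over all genes tested, voom called 8416 for Q175 against WT, 10459 for Q175 against Q20 and 7478 for the slope over both sexes. The all-gene counts for Q175 against WT were 1434 with no filter, 417 with lane and 2362 and 2379 on FPKM. They were 1521 with the length trend removed, 808 at 0.01 and 2365 in the additive fit. For males against females they were 7011 in the additive fit and 7225 in the lower block. The fits of those genotypes only called 6002 for Q175 against WT and 6387 for Q175 against Q20. For Q175 against Q20 the all-gene counts were 2689 with lane, 1588 at 0.01, 2422 with no filter and 1487 with the length trend removed. They were 3108 without the 2 Q140 libraries, 3877 by DESeq2 and 3581 in the additive fit. For the slope over both sexes they were 514 with the length trend removed, 2691 by DESeq2 and 2125 in the additive fit. On FPKM they were 2259 and 2346, of which 1984 and 2070 were higher.

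For the female slope (8), all chosen after seeing the data, it was 0 at 0.01, 1 with no filter or without the 2 Q140 libraries, 2 with the length trend removed, 3 on both FPKM scales, 5 with lane or in a fit of those genotypes only, 13 on females alone and 16 by voom. Counts of 0 became, by voom, 2 for Q111 against Q20, 11 for Q92 against Q20, 11 and 7 for Q175 against WT in females and males, 9 for the male slope, 9 for the slope difference between sexes and 5 for the female slope from Q20 to Q140, which was 4 by DESeq2. Q175 against WT gave 4 in females and 8 in males in a fit of those genotypes only, and 1 on females alone. That fit of those genotypes only called 1616 of all genes in females and 4279 in males. Over all genes voom called 4857 in the female slope, 405 for Q111 and 7181 for Q92 against Q20. It called 4150 in females and 7247 in males for Q175 against WT, and 5823 in the male slope. The slope difference had 906 by voom, and the female slope from Q20 to Q140 had 158 by voom and 431 by DESeq2. The female slope had 40 of all genes at 0.01, 161 with no filter and 169 without the 2 Q140 libraries. It had 72 with the length trend removed, 744 and 783 on FPKM and 553 with lane. In a fit of those genotypes only it had 330, and on females alone 1798. Q175 against WT on females alone had 1322. Correlations with Hmgcs1 (2) numbered 5 without the 2 Q140 libraries and 1 on FPKM. The additive fit changed both the libraries and the model, and the causes were not tested.

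With 1 library left out, the count ran from 0 to 1 for Q175 against WT, Q92 against Q20 and the female slope from Q20 to Q140, from 1 to 5 for Q175 against Q20, from 1 to 4 for the slope over both sexes, from 13 to 15 for males against females, from 0 to 10 for the female slope and from 2 to 5 for Hmgcs1, and stayed at 0 for the others. Npc2 reversed when 1 library was left out, with a range from -0.0083 to 0.79 in Q140 against Q20 and from -0.049 to 0.47 in the slope from Q20 to Q140. Of 783 values of single genes under other settings, 667 kept direction and call, 98 lost and 18 gained a call, and 0 reversed. Of 1516 with 1 library left out, 1404 kept both, 108 lost and 2 gained a call, and 2 reversed. FPKM moved the median of all genes by up to 0.17. Libraries of the same replicate number had a median correlation of 0.01 (351 pairs), so the numbers did not pair samples. With the replicate block the count was 1 for Q175 against WT, 6 for Q175 against Q20, 1 for the slope, 13 for males against females, 7 for the female slope and 0 for the others.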
